A study of Mus musculus with 4 samples.

Results

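The cells described here are the complex cells of 4 single-cell libraries from mouse hindlimb muscle, chosen by their number of detected genes, that is, barcodes with more than 5000 genes of which at most 8% of the transcripts came from mitochondrial genes. They numbered 880 of 21730 cells that passed the mitochondrial limit and held at least 1000 genes, out of 27425 barcodes in the count matrices, and they were set against the 20850 cells of 1000 to 5000 genes, called reference cells below. Satellite cells were sorted as α7-integrin+ VCAM1+ cells negative for Cd11b, Sca1, Cd45 and Cd31, and 1 library was made with 10X 3′ v3.1 chemistry from cells pooled from 2 mice of each strain. The strains were the wildtype B10 (C57/Bl10ScsSn, 15 weeks old) and its dystrophic counterpart mdx (C57BL/10ScSn-Dmdmdx, 11 weeks), and the wildtype DBA (DBA/2, 13 weeks) and its dystrophic counterpart D2-mdx (D2.B10-Dmdmdx, 14 weeks). The mdx and D2-mdx mice carry the mdx allele of Dmd in every cell, none of the mice was injured or treated, and strain, age and library cannot be told apart since each strain is a single library. With 1 library per strain no test between strains was possible, and because gene number chose the complex cells, every contrast with reference cells is a description. The 95% intervals given are exact and cover counting error only.

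Satellite cells are the resident stem cells of skeletal muscle. They lie quiescent beneath the basal lamina, marked by the transcription factor Pax7, and on activation they switch on Myod1, enlarge, divide as myogenic progenitors, and then either return to quiescence or switch on Myog and fuse. A dividing cell carries more RNA than a resting one, and a droplet that caught a pair of cells carries the RNA of both, so barcodes with many genes are often trimmed before clustering.

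The B10 library held 49191944 UMIs (transcripts counted once by their molecular identifier) and the mdx library 67156373, while DBA gave 43542853 and D2-mdx 75482888. In wildtype muscle complex cells made up 41 of 4803 cells of B10, 0.854% (0.613 to 1.16), and 128 of 3498 cells of DBA, 3.66% (3.06 to 4.34). In dystrophic muscle they were 213 of 6882 cells of mdx, 3.1% (2.70 to 3.53), and 498 of 6547 cells of D2-mdx, 7.61% (6.98 to 8.28). D2-mdx thus held more complex cells than the other 3 libraries together, and those cells carried 29.99% of the UMIs of its kept cells, against 13.3% in mdx, 11.0% in DBA and 2.49% in B10. The matrices start at different depths: the shallowest barcode held 204 UMIs in B10 but 3071 in mdx and 4225 in D2-mdx, and 8487 in DBA, which sets the number of cells a share is taken over. Among cells of at least 8487 UMIs, a floor chosen after seeing the data, complex cells were 1.68% of B10 and 3.66% of DBA, against 7.52% of mdx and 19.9% of D2-mdx. On that footing both dystrophic libraries lay above both wildtype libraries, whereas over all cells DBA lay above mdx with overlapping intervals. Of the kept cells' barcodes 43 occurred in more than 1 library, and none was complex in more than 1.

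Complex cells were deeper cells. Their median was 25748 UMIs against 8509 in the reference cells of B10, 33518 against 7189 for mdx, 28514.5 against 10459 for DBA and 42288 against 6783 for D2-mdx, or 3.03, 4.66, 2.73 and 6.23 times as many. The deepest complex cell held 135910 UMIs and 9305 genes, in DBA. When every cell was thinned to 3000 UMIs, the median gene number was 1453 in complex and 1340 in reference cells of B10, 1386 and 1354 for mdx, 1470.5 and 1374 for DBA, and 1364.5 and 1363 for D2-mdx. At equal depth the medians were thus close in mdx and D2-mdx, over an unlike mix of cells. In B10 and DBA the complex medians lay above the third quartile of reference cells, 1407 and 1457. The mitochondrial share was close, with medians of 3.73% and 4.02%, 2.95% and 3.001%, 3.41% and 3.58%, and 2.89% and 3.19% in the same order. Since the cells were chosen by gene number, a depth gap is built in, and no step marked the threshold itself: the 194 cells above 4800 and up to 5000 genes had a median of 23137 UMIs and the 153 cells above 5000 and up to 5200 genes one of 24995.

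**Figure D1:**
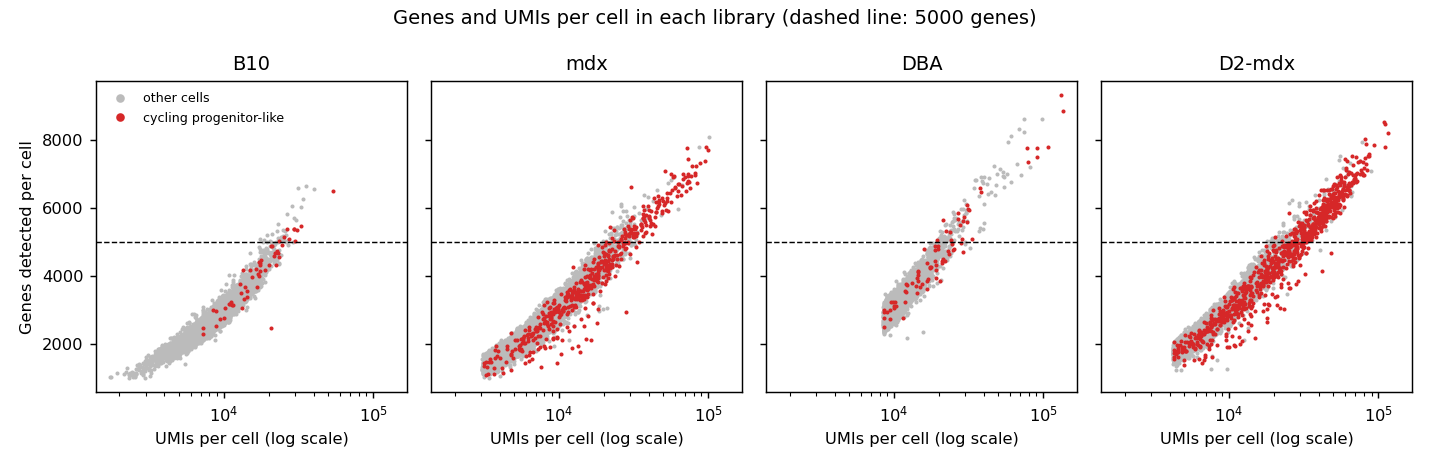
Genes detected against UMIs (log axis) in each kept cell of the 4 libraries, with cells of the cycling progenitor-like cluster in red and the 5000-gene limit as a dashed line. Complex cells are the upper end of a continuous curve, and red cells are most frequent there in mdx and D2-mdx.

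To learn which cells these were, all cells were clustered at the equal depth of 3000 UMIs, so that depth could not place a cell, and clusters were named by canonical markers. Cycling progenitor-like cells (Mki67, Top2a and other division genes) made up 10 of the 41 complex cells of B10, 24.4% (12.4 to 40.3), and 25 of the 128 of DBA, 19.5% (13.1 to 27.5). They made up 125 of the 213 of mdx, 58.7% (51.8 to 65.4), and 371 of the 498 of D2-mdx, 74.5% (70.4 to 78.3). Among reference cells the same cluster held 0.933% in B10 and 1.69% in DBA, 5.503% in mdx and 8.497% in D2-mdx, so their share was larger in complex than in reference cells of every library, and they were the majority of complex cells in mdx and D2-mdx but not in B10 or DBA. Read the other way, 18.5% (9.25 to 31.4) and 30.5% (20.8 to 41.6) of all cycling progenitor-like cells were complex in B10 and DBA, and 25.4% (21.6 to 29.5) and 41.9% (38.6 to 45.3) in mdx and D2-mdx. This name is that of the cluster and not of each cell. By the count of division markers given below, 58.4% to 70.1% of its complex cells and 6.82% to 34.6% of its reference cells were cycling, depending on the library. Muscle stem cell (MuSC)-like cells, which were 92.2%, 65.3%, 78.4% and 58.2% of reference cells (values run B10, mdx, DBA, D2-mdx wherever 4 are listed together), were only 36.6%, 11.3%, 24.2% and 4.22% of complex cells. Of all MuSC-like cells 0.344%, 0.548%, 1.16% and 0.593% were complex. Differentiating myocyte-like cells, a cluster led by Actc1, Mylk4, Myog and the fusion gene Tmem8c, numbered 0, 12, 3 and 27 complex cells, or 0% (up to 8.60), 5.63%, 2.34% and 5.42%, against 0.890%, 3.16%, 1.87% and 3.19% of reference cells. The name fits the dystrophic members only: the differentiating myocyte list was at 10232 CPM in the complex cells of mdx and 11571 CPM in those of D2-mdx but at 856 CPM in the 3 of DBA, which held the MuSC list at 3288 CPM.

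**Figure D2:**
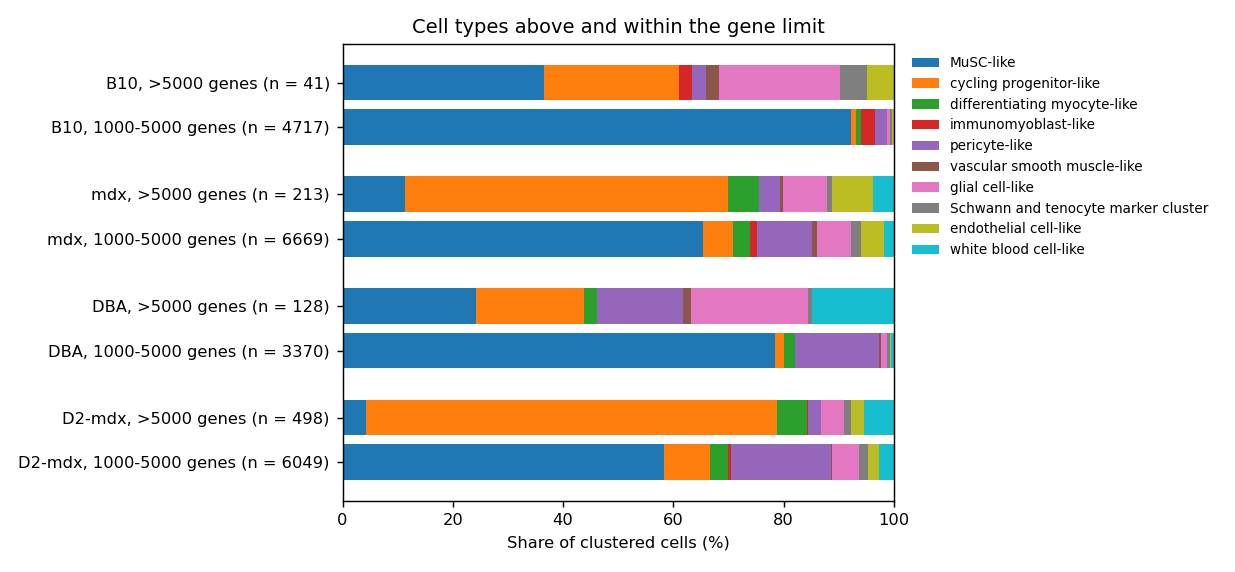
Share of cells in each cluster class, in percent, for complex and reference cells of each library, stacked to the whole. Cycling progenitor-like cells take 58.7% of the complex cells of mdx and 74.5% of D2-mdx, while non-myogenic classes take 36.6% of B10 and 53.9% of DBA.

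The remaining complex cells fell largely in clusters named for other cell types, called non-myogenic for the cluster and not for each cell. Cells of these clusters were 15 of 41 in B10 (36.6%) and 69 of 128 in DBA (53.9%), against 3.39% and 17.9% of reference cells. In mdx they were 52 of 213 (24.4%) and in D2-mdx 78 of 498 (15.7%), against 24.9% and 29.5%. The non-myogenic share was therefore larger above 5000 genes than below in the wildtype libraries, about equal in mdx and smaller in D2-mdx. Glial cell-like cells (Sox10) numbered 9, 17, 27 and 21 complex cells, out of 30, 428, 59 and 322 glial cell-like cells in all. White blood cell-like cells numbered 0, 8, 19 and 27, pericyte-like cells (Rgs5) 1, 8, 20 and 12, and endothelial cell-like cells 2, 16, 0 and 12. Although the sort removed Cd45+ cells, 19 of the 38 white blood cell-like cells of DBA were complex. Many barcodes of the non-myogenic clusters also met the myogenic part of the lineage call described below, by all markers. Glial cell-like complex cells did so in 9 of 9, 15 of 17, 27 of 27 and 18 of 21. Reference cells of that class did so in 14 of 21, 297 of 411, 28 of 32 and 230 of 301. In DBA 18 of 20 pericyte-like and 9 of 19 white blood cell-like complex cells did.

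Across bins of gene number MuSC-like cells gave way to cycling progenitor-like cells in mdx and D2-mdx and to cells of non-myogenic clusters in DBA. From 4000 to 5000 genes through 5000 to 6000 to 6000 to 7000 genes the cycling share was 19.04%, 48.6% and 80% in mdx and 34.7%, 69.2% and 82.9% in D2-mdx. In DBA it was 6.97%, 18.1% and 11.1%, while the non-myogenic share was 38.6%, 45.8% and 77.8%, and B10 had only 7 cells above 6000 genes. Above 7000 genes the 18 cells of DBA were 38.9% cycling and 55.6% non-myogenic. The cycling share there was 83.3% of 12 cells in mdx and 79.5% of 39 in D2-mdx. Over the 4 libraries together the cycling share was 2.56% at 1000 to 2000 genes and 19.7% at 4000 to 5000 genes, then 53.6% at 5000 to 6000 and 72.7% at 6000 to 7000, while the MuSC-like share was 85.6%, 39.0%, 13.8% and 4.35% in the same bins. On either side of the limit the cycling share was 32.5% above 4800 and up to 5000 genes and 35.9% above that and up to 5200, and in DBA alone 14.3% and 12.5%. Above 5000 genes these pooled bins weight D2-mdx most, with 295 of 558 cells at 5000 to 6000 genes and 164 of 253 at 6000 to 7000.

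**Figure D3:**
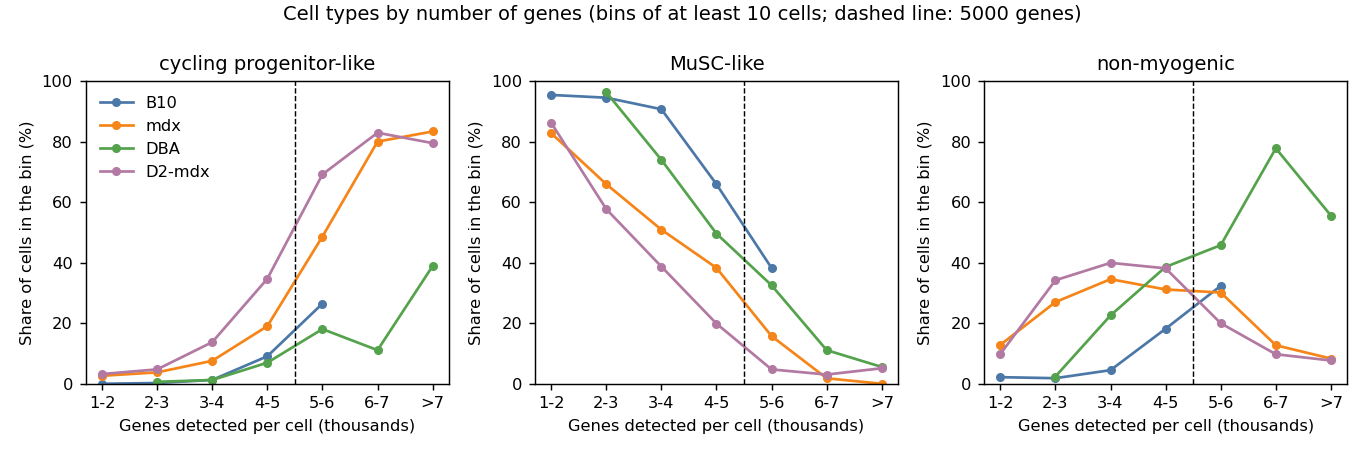
Share of cells in cycling progenitor-like, MuSC-like and non-myogenic clusters, in percent, by bin of detected genes in each library, for bins of at least 10 cells, with the 5000-gene limit marked. Cycling progenitor-like cells overtake MuSC-like cells in mdx and D2-mdx near the limit, and cells of non-myogenic clusters are most frequent above it in DBA.

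Cycling was then read cell by cell, without the clusters, as the share of cells with UMIs from at least 3 of 10 division markers at 3000 UMIs. It was 14.6% (5.57 to 29.2), 35.7% (29.3 to 42.5), 18.0% (11.7 to 25.7) and 54.02% (49.5 to 58.5) of complex cells, against 0.0636%, 1.33%, 0.297% and 3.36% of reference cells. At full depth the shares in complex cells were 17.1%, 54.9%, 25% and 74.7%. None of the MuSC-like complex cells met this rule at equal depth, 0 of 15, 24, 31 and 21, which allows shares of up to 21.8%, 14.2%, 11.2% and 16.1%. The clusters were built on the same thinned counts, so low counts outside the cycling class were in part built in. At full depth 0%, 4.17%, 0% and 42.9% of the MuSC-like complex cells met it. Differentiating myocyte-like complex cells also gave 0 of 12 in mdx and 0 of 27 in D2-mdx, which allows up to 26.5% and 12.8%, although at full depth 41.7% and 18.5% of them met it. Within the cycling progenitor-like class, complex cells met the rule in 60.0%, 58.4%, 60.0% and 70.1% and reference cells in 6.82%, 23.4%, 17.5% and 34.6%, so the complex members of that class were the ones with more division markers at the same number of UMIs. Finer clustering of myogenic cells gave a cluster led by mitotic genes (Nek2, Depdc1a, Kif2c). There 3 of 5, 81 of 175 (46.3%), 17 of 26 (65.4%) and 258 of 432 (59.7%) cells were complex. In another cluster, led by Esm1, Tnc and Fosl1 and scoring highest for the mature myofibre list, the complex share was 13.0%, 13.9%, 13.3% and 26.8%. In B10 the mitotic cluster held 3 complex and 2 reference cells, and the Esm1 cluster 7 and 47. The cycling progenitor-like class held 10 and 44 there, so most of its B10 members lay outside the mitotic cluster.

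Gene levels were compared as CPM, the share of a gene in the UMIs summed over complex and over reference cells of each library, scaled to 1000000. The most even differences were in genes of DNA synthesis and mitosis. Mki67, a nuclear protein of dividing cells, was at 183, 149, 239 and 205 CPM in the complex cells of B10, mdx, DBA and D2-mdx, and at 9.80, 18.3, 11.2 and 37.0 CPM in reference cells (log2 ratios of 4.22, 3.03, 4.42 and 2.47). Top2a, the topoisomerase that untangles replicated DNA, was at 227, 161, 272 and 248 CPM against 3.52, 15.8, 9.51 and 37.8. Both genes reached alike levels in the complex cells of the 4 libraries, and the smaller ratios of mdx and D2-mdx came with higher levels in their reference cells. Rrm2, a subunit of the enzyme that makes deoxynucleotides, had log2 ratios of 4.65, 3.34, 4.92 and 3.04, and the linker histone gene Hist1h1b 6.84, 3.33, 4.34 and 3.33. Pcna, the sliding clamp of DNA polymerase, differed less, at 151, 59.4, 83.3 and 72.4 CPM against 35.7, 24.4, 37.1 and 31.2.

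Of 7940 genes with at least 10 CPM in either class of every library, 167 (2.1%) were at least 2-fold higher in complex cells of all 4 libraries and 5 (0.063%) at least 2-fold lower. Against that background, all 10 cycling progenitor markers, 28 of 38 tested genes of DNA replication (S phase) and 33 of 41 of mitosis (G2/M) were among those higher. The 10 cycling markers summed to 23.5 CPM in B10 reference cells against 797 CPM in complex cells. There they passed the minimum through the complex class, where they are high, so these counts were in part set by the filter and are no test. The 10 genes with the most even excess were Hist1h1a, Hist1h1b, Rrm2, Ube2c, Hist1h2ap, Ncapg, Ccnb1, Bub1b, Ccna2 and 2810417H13Rik, every one a histone gene or a gene of replication or division. All 10 were below 10 CPM in B10 reference cells, with Hist1h1a at 0.644 against 16.2 CPM, so the filter helped to set this list as well. The 5 that were lower were Hbb-bt, Adamts15, 1200007C13Rik, Npy1r and Id4. The counts of higher and of lower genes both depended on the libraries and the minimum CPM used, as given under processing below. Hbb-bt, a haemoglobin chain of red blood cells, had 0, 88, 4 and 160 UMIs in complex cells. Summed over each list, the log2 ratio was 1.89, 1.63, 1.59 and 1.64 for DNA replication and 1.53, 1.96, 2.21 and 1.86 for mitosis.

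**Figure D4:**
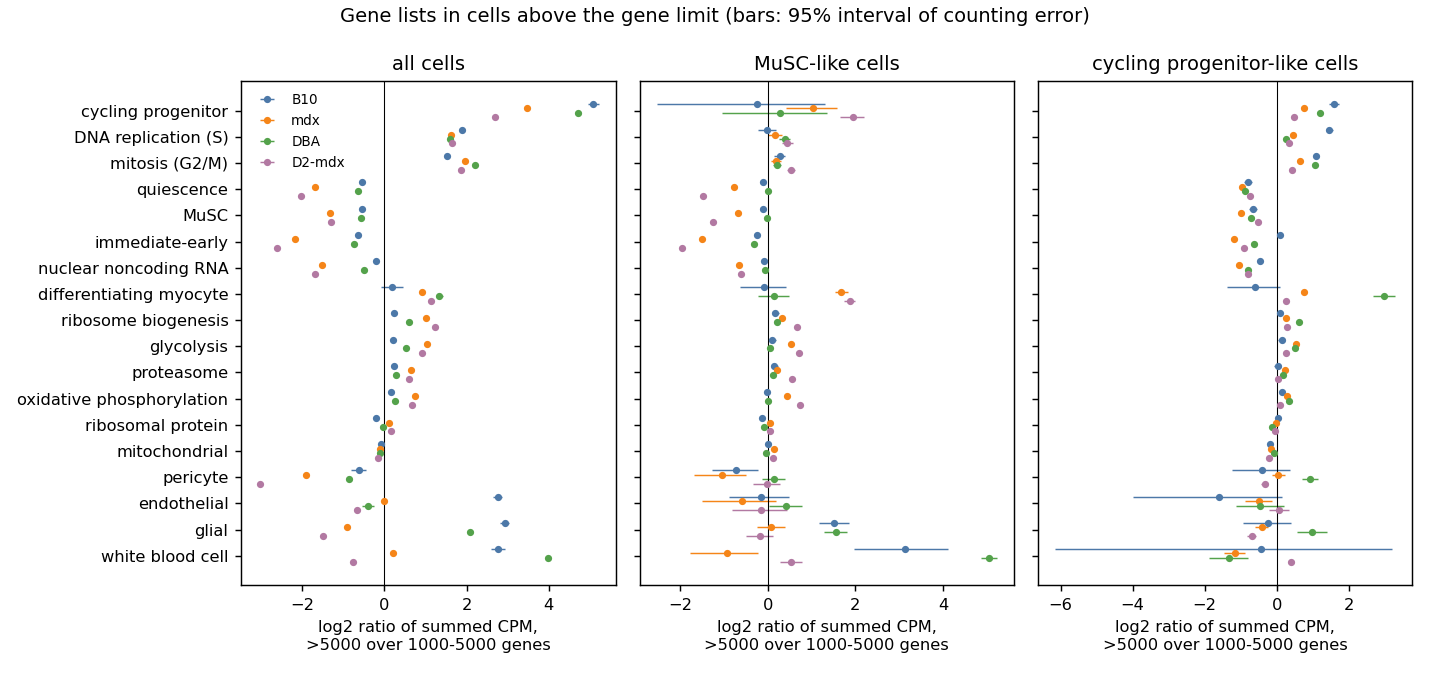
Log2 ratio of summed CPM, complex over reference cells, for each gene list in the 4 libraries, with 95% counting intervals, over all cells, within MuSC-like cells and within cycling progenitor-like cells. Over all cells the replication and mitosis lists lie above 0 in every library, and the immediate-early and quiescence lists lie lower in mdx and D2-mdx than in B10 and DBA.

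Genes of the resting satellite cell lay lower in complex cells, by far more in the dystrophic libraries. Pax7 was at 589, 110, 349 and 62.5 CPM in complex cells, against 876, 334, 575 and 317 CPM in reference cells. Chodl, a membrane lectin of quiescent satellite cells, was at 857, 109, 732 and 57.5 CPM, with log2 ratios of -0.72, -3.04, -0.73 and -3.42. The antigens of the sort were present: Itga7 was at 84.6, 76.5, 80.7 and 66.1 CPM in complex cells, close to the reference, and Vcam1 at 335, 217, 283 and 175 CPM against 380, 467, 316 and 421. No gene of the quiescence list (19 tested) was 2-fold lower in all 4 libraries, but 14 of 19 were in both mdx and D2-mdx, where 9.8% of all genes were, and 0 in both B10 and DBA, where 0.0882% were. For the 12 MuSC markers the counts were 8 and 0. Markers of other cell types were also 2-fold lower in both mdx and D2-mdx: 7 of 8 pericyte, 3 of 3 vascular smooth muscle, 4 of 5 Schwann and 3 of 8 glial genes. For endothelial and white blood cell markers the counts were 0 of 2 and 0 of 1. In both B10 and DBA 0 genes of these lists were 2-fold lower. There 7 of 8 glial, 1 of 8 pericyte and 1 of 1 white blood cell genes were 2-fold higher, as 3.59% of all genes were. For vascular smooth muscle, Schwann and endothelial genes that count was 0. Myod1, the regulator that commits the satellite cell to myogenesis, was at 148, 240, 124 and 286 CPM in complex and 101.5, 113, 123 and 151 CPM in reference cells, and of the 14 genes of the activation list 2 were 2-fold higher in mdx and D2-mdx, where 5.08% of all genes were, and 3 were 2-fold lower, where 9.8% were. In B10 and DBA 2 of the 14 were 2-fold higher as well, where 3.59% of all genes were, and 0 lower.

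A wide gap between wildtype and dystrophic libraries was in the immediate-early genes, transcription factors and feedback regulators that are switched on within minutes of a stimulus, including tissue dissociation. Fos was at 5686, 1214, 3656 and 992 CPM in complex cells against 8552, 6936, 6300 and 7532 in reference cells, which gave log2 ratios of -0.59, -2.51, -0.79 and -2.92. Egr1 was at 3738, 654, 2247 and 409 CPM against 6155, 2946, 3662 and 2591. The complex cells of mdx and D2-mdx stood lowest for both genes, while the reference levels were close for Fos and highest in B10 for Egr1. Of the 18 immediate-early genes 17 were at least 2-fold lower in both mdx and D2-mdx (9.8% of all genes) and none in both B10 and DBA (0.0882%), and the summed log2 ratios were -0.65, -2.17, -0.75 and -2.61. Whether the ratios differ between strains was not tested, and cycling cells made up more of the complex cells in mdx and D2-mdx. Of 5 nuclear noncoding RNAs tested 3 were at least 2-fold lower in both mdx and D2-mdx (9.8% of all genes) and 0 in both B10 and DBA (0.0882%), with Malat1 at log2 ratios of -0.16, -1.52, -0.49 and -1.70 and Meg3 at -0.62, -2.81, -0.77 and -2.89.

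Genes of growth showed the mirror pattern at a smaller size. Npm1, a nucleolar chaperone of ribosome assembly, was at 883, 2613, 1493 and 3473 CPM in complex cells against 755, 1155, 820 and 1364. The summed log2 ratio of the ribosome biogenesis list was 0.24, 1.02, 0.59 and 1.22 and that of glycolysis 0.21, 1.03, 0.52 and 0.91. At least 2-fold higher in both mdx and D2-mdx, as 5.08% of all genes were, were 5 of 24 ribosome biogenesis genes, 6 of 11 glycolysis genes and 4 of 9 chaperonin genes, but 2 of 18 translation factors, 3 of 28 genes of oxidative phosphorylation and 0 of 24 proteasome genes. In B10 and DBA, where 3.59% of all genes were 2-fold higher, none of these 6 lists had such a gene. Ribosomal protein genes had summed log2 ratios near 0, at -0.20, 0.12, -0.02 and 0.15, which is within the shift that other library scalings give to the median gene. Of 3 genes tested of the mature myofibre list, 1 was at least 2-fold higher in all 4 libraries (2.1% of all genes), Eno3, a muscle enolase, at 20.7, 550, 61.6 and 491 CPM against 5.68, 36.0, 4.44 and 81.7. The other members tested, Acta1 and Atp2a1, had log2 ratios of -0.71 and -0.55 in DBA. In both mdx and D2-mdx 2 of the 3 were at least 2-fold higher (5.08% of all genes), and in both B10 and DBA 1 of the 3 was (3.59%).

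Since the mix of cell types differed, the comparison was repeated within MuSC-like cells, of which 15, 24, 31 and 21 were complex, with medians of 24859, 27366.5, 24826 and 36301 UMIs against 8467, 6525, 10226 and 6027. At 3000 UMIs their median gene numbers were 1406, 1393.5, 1414 and 1368 against 1336, 1316, 1351 and 1324. In B10, mdx and DBA these lay above the third quartile of the reference cells (1399, 1384 and 1411), and in D2-mdx below it (1385). Of 7356 genes tested, 2 (0.0272%) were at least 2-fold higher in all 4 libraries and 2 (0.0272%) lower. No gene of replication (16 tested) or mitosis (14 tested) was among them, and none of the 10 cycling markers was abundant enough to be tested. Summed, those markers were at 7.47, 42.8, 7.996 and 150.2 CPM (3, 28, 7 and 124 UMIs) in complex against 8.88, 21.0, 6.56 and 39.3 CPM in reference cells, with log2 ratios of -0.25, 1.03, 0.29 and 1.93. A low level of division genes was thus higher in the complex MuSC-like cells of mdx and D2-mdx, far below the cycling class, and Mki67 stood at 10.7 against 7.49 CPM in mdx and 13.3 against 7.31 CPM in D2-mdx. The 2 higher genes were Ptn, a secreted growth factor, and S100a4, a calcium-binding protein. Ptn passed the 10 CPM minimum in B10, DBA and D2-mdx only through complex cells, so its call was in part set by the filter. S100a4 passed it in both classes. Ptn was at 49.8, 67.2, 59.4 and 67.8 CPM (20, 44, 52 and 56 UMIs) against 0.356, 10.3, 0.344 and 6.32 CPM. The glial list moved with it in the wildtype libraries, with summed log2 ratios of 1.51, 0.09, 1.55 and -0.17 in the same cells, as did the vascular smooth muscle list at 1.42, 0.35, 0.64 and -0.11, and their part in the Ptn difference was not tested. S100a4 was at 127, 530, 59.4 and 1628 CPM against 52.1, 155, 18.0 and 261. The 2 lower genes were Hbb-bs, another haemoglobin chain, with 1, 8, 16 and 26 UMIs in complex cells, and Gm5914, with 1, 4, 6 and 6. The intervals of the Gm5914 log2 ratio reached above 0 in B10, mdx and DBA (up to 0.38, 0.15 and 0.026).

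Within MuSC-like cells the wildtype libraries showed little contrast in satellite cell genes, and the dystrophic ones a smaller contrast than over all cells. Pax7 was at 839, 357, 684 and 188 CPM in complex against 920, 495, 713 and 556 CPM in reference cells. The summed log2 ratio of the quiescence list was -0.11 in B10 and 0.01 in DBA, and -0.76 in mdx and -1.48 in D2-mdx, where 6 of its 19 genes were at least 2-fold lower in both. The differentiating myocyte list was higher in the same cells, at 676.8 against 210.9 CPM in mdx and 684.5 against 187.6 CPM in D2-mdx, but at 77.2 against 81.7 CPM in B10 and 81.1 against 73.3 CPM in DBA. The summed log2 ratio of the immediate-early list was -0.25 in B10, -0.31 in DBA, -1.49 in mdx and -1.96 in D2-mdx, and 16 of its 18 genes were 2-fold lower in both dystrophic libraries, where 2.87% of all genes were, against none in B10 and DBA (0.0544%). The MuSC-like class joins several clusters, and the largest, led by the immediate-early and stress genes Dnajb1, Egr2, Atf3 and Zfp36, held 14 of 15, 12 of 24, 19 of 31 and 7 of 21 of the complex cells and 2829 of 4348, 3063 of 4355, 1730 of 2643 and 2582 of 3522 of the reference cells. The part of that mix in these ratios was not tested. Genes that mark a satellite cell state enriched in dystrophic muscle lay higher there: 4 of 6 tested, Cdkn1c, Col1a2, Mest and S100a11, were at least 2-fold higher in mdx and D2-mdx, where 0.571% of all genes were. Cdkn1c, an inhibitor of cyclin-dependent kinases, was at 22.4, 1509, 29.7 and 842 CPM in complex cells, against 19.4, 527, 18.7 and 208 CPM. The fibroblast or tenocyte list had summed log2 ratios of 1.16, 0.36, -0.03 and 1.57 in these cells, with Dcn its most abundant gene in D2-mdx. Its 1 tested gene was at least 2-fold higher in both mdx and D2-mdx. The white blood cell list had summed log2 ratios of 3.14, -0.94, 5.04 and 0.53 in these cells, but its most abundant gene in DBA, Lyz2 (9, 7, 398 and 46 UMIs), does not mark white blood cells alone here: glial cell-like complex cells of DBA held it at 1984 CPM with Ptprc and Ctss at 0 UMIs. Other members were few but not absent in the MuSC-like complex cells of DBA, with Cd74 at 49 UMIs (56.0 CPM against 5.39 CPM in reference cells), Cd52 at 6, Ptprc, Laptm5 and Coro1a at 3 each, S100a8 at 1 and Tyrobp at 0. The part of these markers in the other results was not tested.

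Within cycling progenitor-like cells, a class that was itself built on division genes, no gene of 7024 tested was 2-fold higher in complex cells of all 4 libraries (0%) and 14 (0.199%) were lower. Rrm2 came nearest, at 369, 275, 273 and 304 CPM against 57.3, 114, 79.2 and 153 CPM. The 14 lower genes included the matrix and signalling genes Chrdl2, Col5a1, Dpt, Nppc and Vstm4, the imprinted genes Plagl1 and Meg3, and the Notch target Heyl, and 4 of the 16 quiescence genes tested were among them. Chodl was at 275, 47.7, 241.5 and 39.5 CPM against 600, 164, 661 and 107 CPM. In B10 and DBA, where 1.96% of all genes were at least 2-fold higher, 6 of 10 cycling markers and 17 of 49 mitosis genes were, whereas in mdx and D2-mdx (0.0142%) none of either list was. B10 had only 10 complex cells in this class.

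To see whether more than 1 lineage was read from the same barcode, a cell was called mixed where, at 3000 UMIs, it held at least 3 UMIs from at least 2 markers of each of 2 or more lineages. With all markers the share of complex cells was 65.9% (49.4 to 79.9) in B10 and 61.7% (52.7 to 70.2) in DBA, and 29.1% (23.1 to 35.7) in mdx and 20.7% (17.2 to 24.5) in D2-mdx, against 16.1%, 26.8%, 26.8% and 36.0% of B10, DBA, mdx and D2-mdx reference cells. MuSC-like reference cells already scored 14.1% to 27.0%, so 16 markers that several cell types share, such as Acta2, Tagln, Vcam1 and Itga7, were dropped, a choice made after seeing the data. With the stricter markers 13 of the 41 complex cells of B10 were mixed, 31.7% (18.1 to 48.1), and 56 of the 128 of DBA, 43.8% (35.002 to 52.8). The counts were 31 of 213 for mdx, 14.6% (10.1 to 20.02), and 45 of 498 for D2-mdx, 9.04% (6.67 to 11.9). Reference cells scored 0.615%, 4.72%, 3.53% and 7.54%. By either set of markers mixed barcodes were most frequent in the complex cells of the wildtype libraries, and in D2-mdx the strict shares of the 2 classes lay close together.

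The mixed barcodes sat mostly in the non-myogenic clusters. Glial cell-like complex cells were mixed by the strict markers in 9 of 9, 10 of 17, 23 of 27 and 17 of 21, against 10 of 21, 110 of 411, 22 of 32 and 114 of 301 reference cells of that class. Pericyte-like complex cells were mixed in 5 of 8 in mdx, 17 of 20 in DBA and 2 of 12 in D2-mdx, against 60 of 662, 56 of 512 and 138 of 1087 reference cells. Endothelial cell-like complex cells were mixed in 9 of 16 in mdx and 3 of 12 in D2-mdx, against 34 of 278 and 29 of 111. For white blood cell-like cells the order was not the same throughout, with 4 of 8 complex against 36 of 122 reference cells in mdx and 11 of 27 against 40 of 169 in D2-mdx, but 9 of 19 against 14 of 19 in DBA. Cycling progenitor-like complex cells were seldom mixed outside DBA, at 0 of 10, 0 of 125, 5 of 25 and 6 of 371. Reference cells of that class gave 0 of 44, 8 of 367, 6 of 57 and 23 of 514. The counts of 0 in complex cells allow up to 30.8% in B10 and 2.91% in mdx. MuSC-like complex cells were mixed in 1 of 15, 0 of 24, 1 of 31 and 1 of 21. This call misses pairs of myogenic cells and cells in which no lineage was called, which by all markers were 19 of 125 cycling progenitor-like complex cells in mdx and 75 of 371 in D2-mdx. The Scrublet doublet score picked other cells in part: it placed 12.2%, 20.2%, 14.1% and 10.2% of complex cells among the expected number of doublets, against 3.78%, 5.04%, 2.37% and 4.83% of reference cells, and of the strict mixed complex cells it picked 1 of 13, 21 of 31, 12 of 56 and 21 of 45.

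**Figure D5:**
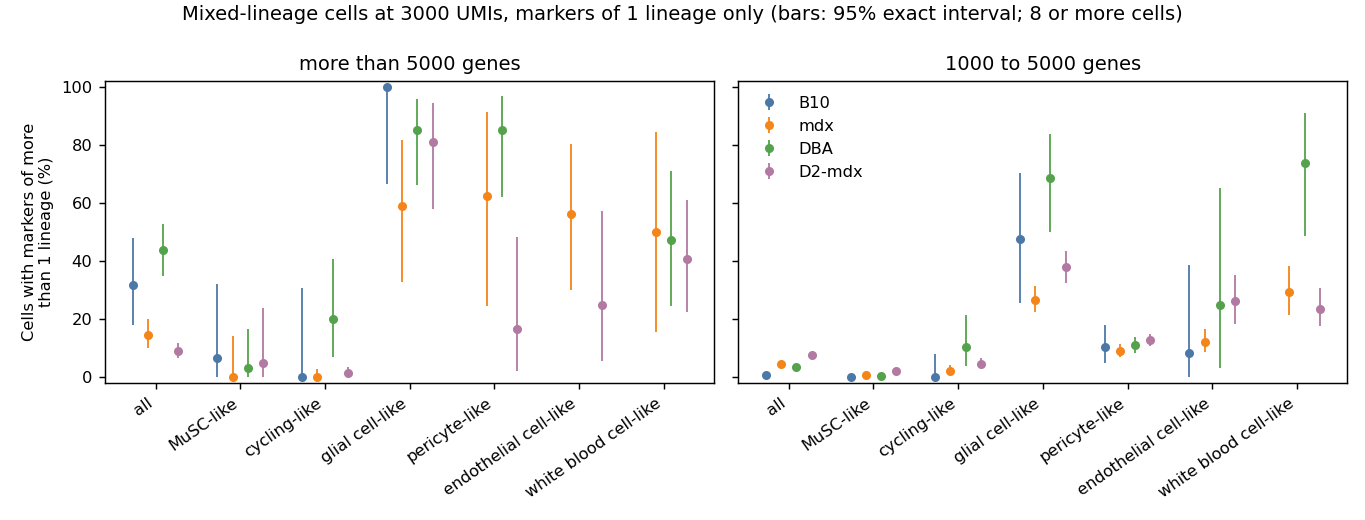
Share of cells with markers of more than 1 lineage (strict markers, 3000 UMIs), in percent with exact 95% intervals, in complex and reference cells of each library and cluster class with at least 8 cells. Glial cell-like complex cells lie at 58.8% or above in every library, and cycling progenitor-like complex cells at 20% or below.

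Gene levels of both lineages were read in the glial cell-like complex cells. Sox10, the glial transcription factor, was at 242, 171, 136 and 128 CPM in complex against 261, 305, 308 and 232 CPM in reference cells of that class. Pax7 stood at 568, 288, 533 and 151 CPM in the same complex cells, against 403, 140, 301 and 164 CPM. Glial markers together were lower and satellite cell markers present at a similar or higher level, 4449, 2516, 4020 and 1918 CPM for the MuSC list against 3522, 2211, 2983 and 1953 CPM. The glial list was at 3182, 2134.5, 2420 and 2227 CPM in these complex cells, against 5479, 4191, 4861 and 4075 CPM. In the complex cells of B10, mdx and DBA it thus lay below the MuSC list. The pericyte-like complex cells of DBA likewise held Pax7 at 317 CPM against 49.2 CPM and Chodl at 654 against 128 CPM. The white blood cell-like complex cells were of unlike kinds: those of DBA held 8103 UMIs of the neutrophil gene S100a8 and 8 of the macrophage gene Ctss, those of D2-mdx 33 and 1780, and those of mdx 0 and 760. In DBA they also carried Mki67 at 232 CPM against 26.9 CPM in reference cells of the class, and 8 of the 19 met the cycling rule. In D2-mdx 5 of 27 met it against 4.14% of reference cells of the class, with Mki67 at 84.6 against 46.5 CPM, and in mdx 1 of 8, with Mki67 at 56.5 against 15.4 CPM.

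The study asks how loss of dystrophin alters satellite cells, and so the dystrophic and wildtype libraries were compared within myogenic complex cells. Dmd itself, the gene that carries the mdx allele, was at 288 CPM in B10 and 14.1 CPM in mdx (log2 ratio -4.36, -4.72 to -4.01), and at 197 CPM in DBA and 12.3 CPM in D2-mdx (-4.004, -4.24 to -3.77). In reference cells the log2 ratios were -1.43 and -1.61, so Dmd did not go against the library labels in either class. Within the MuSC-like class the complex cells gave -2.88 and -2.85 against -1.22 and -1.26, and within the cycling progenitor-like class -3.75 and -3.19 against -2.53 and -2.94, so a lower Dmd level in complex dystrophic cells was seen inside both classes. The libraries differ in the mix compared, since MuSC-like, cycling progenitor-like and differentiating myocyte-like cells were 15, 10 and 0 of the complex cells in B10, 24, 125 and 12 in mdx, 31, 25 and 3 in DBA and 21, 371 and 27 in D2-mdx, and the part of that mix in the counts and values over all myogenic cells was not tested. Of 8267 genes tested, 285 (3.45%) were at least 2-fold higher in both pairs and 1162 (14.1%) at least 2-fold lower. The 5 highest were Actc1, Dpysl3, Tnni1, Gm7325 and Tnnt2, which except for Dpysl3 are genes of the embryonic sarcomere or of fusion. Actc1 had 774 UMIs in mdx and 0 in B10, and 1346 in D2-mdx and 10 in DBA. The 5 lowest were Cdh4, Tac4, Mgarp, Gm26834 and Cacna1d. Tac4, a tachykinin precursor, had 1 UMI in mdx and 17 in B10, and 15 in D2-mdx and 140 in DBA.

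Single genes of differentiation and of the stem cell state, Myog and Pax7, lay apart in the same comparison. No count over a list is given there. Myog was at 9.53 CPM in B10 and 389 in mdx, and at 33.9 in DBA and 326 in D2-mdx. Pax7 was lower in the dystrophic complex cells, with log2 ratios of -2.75 and -2.68 (-1.23 and -1.87 within MuSC-like cells), and Cdkn1c higher, with 4.21 and 1.62 (6.07 and 4.83 within MuSC-like cells). Mki67 did not follow the share of cycling cells: its log2 ratio was -0.64 and -0.88 in myogenic complex cells and 1.16 and 1.84 in reference cells. Within cycling progenitor-like complex cells it was at 647 CPM in B10 against 209 in mdx, and at 729 in DBA against 250 in D2-mdx, so the few wildtype cycling complex cells had the higher level per UMI.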

How the data were processed

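Per the labels and the submitters' processing notes, the authors processed the 4 libraries with Cell Ranger 3.0.1 against mm10 and deposited filtered matrices of UMI counts per gene and barcode, not normalized (27998 genes). Ages and pooled animals are from the labels. All barcodes with at least 1000 genes and at most 8% of UMIs from mitochondrial genes were kept. Doublets were not removed; Scrublet scores (scanpy 1.11.5) were computed in each library, and removing the expected number of top scores was an alternative. The study used DoubletFinder, which was not run here. UMIs were thinned to 3000 per cell, and the libraries were integrated by canonical correlation in Seurat 5.3.0 (2000 features, 30 dimensions, resolution 0.1 for all and 0.2 for myogenic cells, 0.4 for finer clusters, added after seeing the data), leaving out 45 reference cells of B10 with fewer than 3000 UMIs. The names are rebuilt from markers, and 1 cluster with Schwann and tenocyte markers was left unnamed. After integration 1 MuSC-like cluster scored highest for the dystrophy-enriched list, but no list member was among its leading genes and it was not named for it. Without integration a cluster led by Dcx, Gpc3, Postn and Col1a2 held 4240 mdx and 791 D2-mdx reference cells against 35 of B10 and 17 of DBA.

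UMIs were summed per class and library, scaled to CPM and compared as log2 ratios within a library with exact binomial intervals. A gene at 0 was set to 3 counts. Genes needed at least 10 CPM in 1 class of every library, and a call needed a 2-fold difference one way in every library named. A gene that passed only through the class where it is high was partly chosen for its difference, so counts of calls describe and do not test. Genes named are Dmd, Itga7, Vcam1, the myogenic regulators, members of the lists, the 10 most even genes in each direction (5 for dystrophic over wildtype) and leading genes of clusters. Gm5914 and the other genes lower in cycling cells follow the same rule or were named for being few. The complex cells and the lists were chosen with earlier results of these data known. Scripts were tested on simulated data. Python 3.11.15, R 4.3.3, edgeR 4.0.16 (TMM factors) and DESeq2 1.42.0 (size factors) were used, the last of these for scaling only. With no test, no p-value is given. Results for some genes are not reported here.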

Additional observations from a re-analysis of the deposited data

Results flagged for a closer look

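The sign of the summed log2 ratio, complex over reference cells, differed between libraries for several gene lists, and in 3 of them both wildtype libraries lay on one side of 0 and both dystrophic libraries on the other, with counting intervals that did not reach 0. The difference between libraries was not tested, since each strain is 1 library. The glial list had summed log2 ratios, complex over reference cells, of 2.93 in B10 and 2.10 in DBA, but -0.90 in mdx and -1.50 in D2-mdx. Cells of the glial class were 22.0% of complex and 0.445% of reference cells in B10 and 21.1% and 0.9496% in DBA, but 7.98% and 6.16% in mdx and 4.22% and 4.98% in D2-mdx, so in mdx their share was not lower in complex cells although the list was. Its most abundant gene in complex cells was Scn7a in B10 and DBA and Matn2 in mdx and D2-mdx, Gfap was at 0 UMIs in DBA, and the part of these cells in the ratio was not tested. The list of genes that mark the dystrophy-enriched state gave 0.93 in B10 and 0.34 in DBA but -0.29 in mdx and -0.43 in D2-mdx over all cells, although 4 of its 6 tested genes were 2-fold higher within the MuSC-like cells of mdx and D2-mdx. The ribosomal protein list gave -0.20 in B10 and -0.023 in DBA but 0.12 in mdx and 0.15 in D2-mdx. These are small values, and the median of all genes was 0.13 and 0.02 in the wildtype and -0.12 and -0.15 in the dystrophic libraries.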

How the results depend on the processing

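Complex and reference cells were compared within each library. No paired test over the 4 libraries was run, because gene number chose the complex cells. Each strain has 1 library, and no result comes from a test. Of 249 values under alternatives, 86 moved by less than counting error or 1.5 times, 161 moved further and 2 turned sign. Complex cells were 2.27%, 5.70%, 6.83% and 10.65% of cells in B10, mdx, DBA and D2-mdx above 4500 genes and 0.146%, 0.974%, 1.29% and 3.1% above 6000. With libraries thinned to the lowest median depth of reference cells the share was 0.209% in B10 and 1.29% in DBA, with top doublet scores removed 2.61% in mdx, and above the common UMI floor (added) 1.68%, 7.52% and 19.9% in B10, mdx and D2-mdx. The cycling share was 70.6% in mdx without top doublet scores, 80.6% and 82.3% in mdx and D2-mdx above 6000 genes, and 80.5% and 78.5% in D2-mdx at resolution 0.2 for all cells and 0.4 (added).

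Genes higher in all 4 libraries were 45 at a minimum of 50 CPM, 355 with no minimum, and 175 to 281 with 1 library left out (281 without B10). Genes lower were 18 with TMM, 10 with DESeq2 size factors, 22 without top doublet scores, 0 at 50 CPM, 23 with no minimum, 1 as a mean per 10000, 71 above 6000 genes, 17 against cells of 3000 to 5000 genes and 5 to 44 with 1 library left out (44 without DBA, 16 without B10). Within MuSC-like cells 2 to 10 were higher and 2 to 9 lower with 1 library left out, and 1 lower without top doublet scores. There the cycling and replication lists of B10, on few UMIs, had summed log2 ratios of -0.25 and -0.010, against 1.03 and 0.17 in mdx, 0.29 and 0.39 in DBA and 1.93 and 0.44 in D2-mdx. No cycling marker was tested there (0 higher), and 0 replication and 0 mitosis genes were higher. Immediate-early genes lower in all 4 libraries were 2 with TMM and 1 without top doublet scores. TMM moved the median gene to -0.17, -0.04, -0.13 and 0.07.

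Mixed cells by all markers were 48.8%, 23.0%, 51.6% and 12.7% at 2000 UMIs, 97.6%, 95.8%, 98.4% and 99.4% unthinned, and 31.7%, 14.6%, 43.8% and 9.04% by strict markers (added). In mdx, DBA and D2-mdx they were 41.3%, 74.2% and 33.3% at 5000 UMIs and 20.2%, 52.3% and 12.7% with 5 UMIs per lineage. They were 100% in B10 and 17.9% in mdx above 6000 genes, and 17.1% in mdx and 15.7% in D2-mdx without top doublet scores. The Dmd log2 ratio was -5.61 and -3.24 above 6000 genes and -3.73 in D2-mdx with TMM. The cause of each move was not tested. Precision is limited by cell number, above all in B10.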
